A study of Homo sapiens with 2 samples.

Results

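The DNAJ genes encode J-domain proteins, the cochaperones that hand unfolded or client proteins to HSP70. They were taken as all protein-coding genes whose symbols start with DNAJA, DNAJB or DNAJC and a digit in GENCODE release 44 lifted to GRCh37. That rule found 45 genes among the 63677 gene IDs of the count tables, 4 of class A, 12 of class B and 29 of class C. RNA was sequenced from MDA-MB-231 cells, an established line of triple-negative human breast cancer. There was 1 library of cells given CCE, which is Carpesium cernuum extract, and 1 library labelled as control. The treatment text of both samples names 1 µg/mL of CCE for 24 h, so the groups follow the treatment label, and the sources used here do not name a vehicle for the control cells. Coordinates of genes are on GRCh37.

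J-domain proteins carry a histidine-proline-aspartate signature that makes HSP70 hydrolyse ATP and close on its client. Class A proteins also hold a glycine- and phenylalanine-rich region and a zinc-binding domain, class B proteins the glycine- and phenylalanine-rich region, and class C proteins the J domain joined to many other kinds of sequence. DNAJA1, DNAJB1 and DNAJB4 are known as heat shock genes of the cytosol. DNAJB9, DNAJB11, DNAJC3 and DNAJC10 serve the HSP70 of the endoplasmic reticulum and are known to be induced when unfolded proteins build up there.

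Genes held 34884501 counts in the CCE library and 5633569 counts in the control library. A single count was worth 0.0283 CPM in the CCE library and 0.180 CPM in the control library, where CPM is the count scaled to a common library size with TMM factors. With 1 library per group there is no replicate check and no test, so each ratio is given with an exact 95% Clopper-Pearson interval, which leaves out any spread between cultures. Of the cell line's mesenchymal markers, VIM, CD44, AXL and CAV1 lay between 158 and 1801 CPM in the CCE library and between 339 and 3739 CPM in the control library. Their log2 ratios, CCE over control, were -1.05, -0.32, -0.95 and -1.10, in that order. The estrogen receptor gene ESR1 had 0 counts in both libraries, as did the liver gene ALB. CDH1, PGR, PTPRC and CD3E had at most 11 counts in a library, while ERBB2 was present at 51.8 CPM in the CCE library and 55.4 CPM in the control library. The epithelial gene KRT8, listed beforehand as low or absent, had 129 CPM in the CCE library and 175 CPM in the control library. EPCAM, listed likewise, had 7.50 CPM in the CCE library and 10.1 CPM in the control library.

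The related class B cochaperones DNAJB1, DNAJB4 and DNAJB5 are shown by the coding stretch around their signature, because DNAJB4 and DNAJB5, but not DNAJB1, had a ratio past 2-fold. The capitals mark the codons of histidine, proline and aspartate. Stretches are from the GRCh37 genome in coding direction, at chr19:14629033-14629095 on the minus strand, chr1:78470861-78470923 on the plus strand and chr9:34993297-34993359 on the plus strand.
DNAJB1: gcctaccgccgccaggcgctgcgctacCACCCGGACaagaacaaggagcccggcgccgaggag
DNAJB4: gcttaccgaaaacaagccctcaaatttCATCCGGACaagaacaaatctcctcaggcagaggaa
DNAJB5: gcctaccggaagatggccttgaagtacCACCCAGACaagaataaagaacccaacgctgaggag
DNAJB4 matched DNAJB1 at 39 of 63 bases of the stretch and at 64.9% of 992 aligned coding bases. DNAJB5 matched DNAJB1 at 45 of 63 bases and at 66.6% of 997 aligned coding bases. The longest run of identical bases between any pair of the 3 coding sequences was 14 bases.

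Genes averaging 1 CPM or more over both libraries were called measured, which took in 36 of the 45 genes: 3 of class A, 9 of class B and 24 of class C. Of these 36, 7 were at least 1.5-fold higher in the CCE library with an interval that excluded 1, against 11.5% of measured protein-coding genes and 12.1% of all measured genes. They were DNAJB4, DNAJB5, DNAJB9, DNAJC2, DNAJC16, DNAJC24 and DNAJC25, and 3 of them passed 2-fold, against 3.26% of protein-coding genes and 4.36% of all genes. None of the 36 was at least 1.5-fold lower, a call made for 10.9% of protein-coding genes and 11.3% of all genes, and likewise none was 2-fold lower, against 4.33% and 4.92%. With no fold threshold, the interval lay above 1 for 16 DNAJ genes, against 32.7% of protein-coding genes and 30.1% of all genes. It lay below 1 for 2 DNAJ genes, DNAJB6 and DNAJC15, against 26.6% of protein-coding genes and 25.1% of all genes. The lowest ratio, that of DNAJC15, was higher than those of 28.2% of measured protein-coding genes. The median log2 ratio was 0.18 over the 36 genes and 0.05 over the 11637 measured protein-coding genes, and 28 of 36 lay above 0, against 54.4% of protein-coding genes and 53.9% of all genes. The 8 others lay below 0, against 45.6% of protein-coding genes and 46.1% of all genes. The DNAJ genes together held 2854 CPM in the CCE library and 2552 CPM in the control library.

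**Figure D1:**
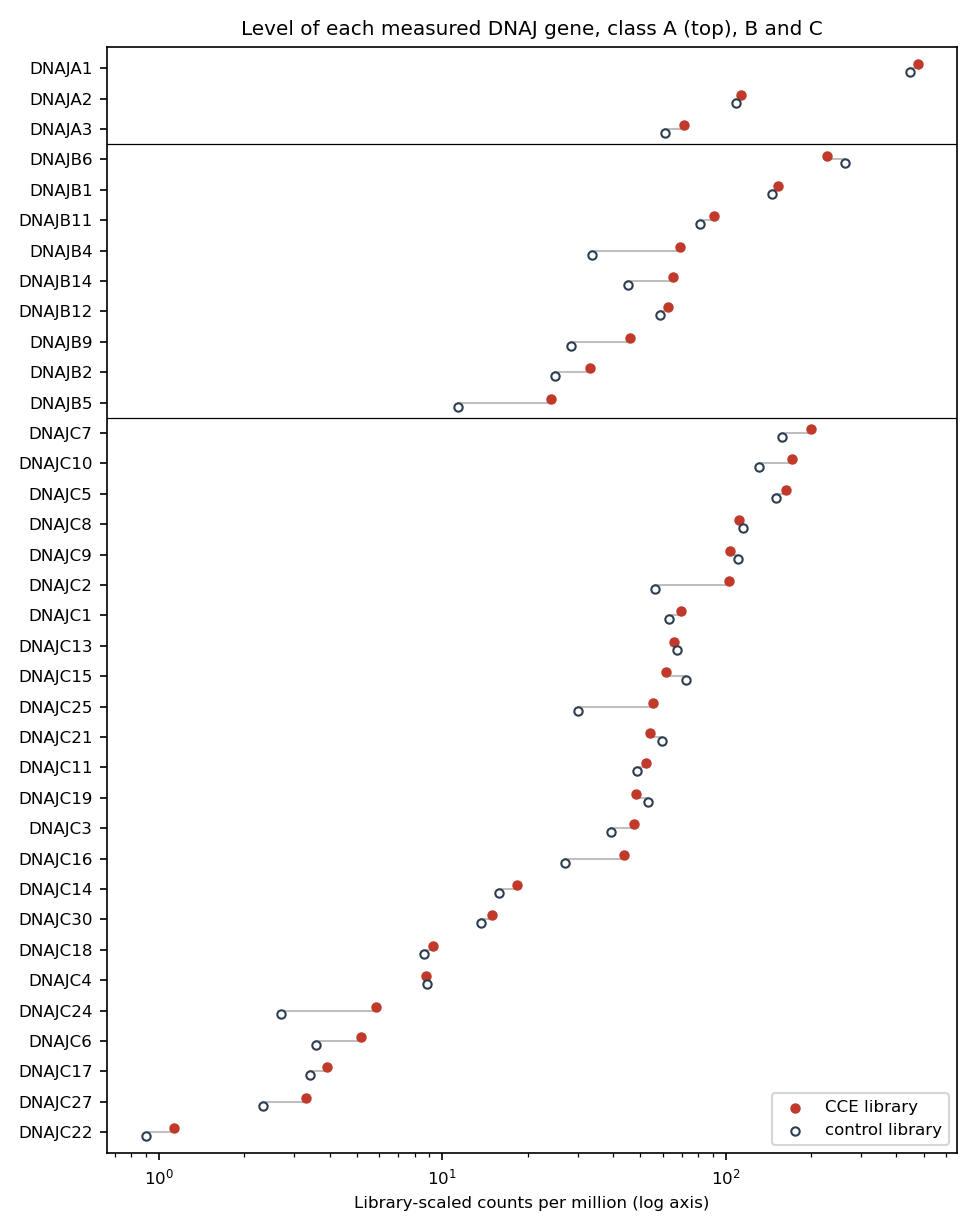
Level of each of the 36 measured DNAJ genes in CPM, library-scaled (log axis), filled points for the CCE library and open points for the control library, with class A on top, then B, then C. Most pairs of points lie close together, and the 7 genes at least 1.5-fold higher in the CCE library have the largest ratios of the 36.

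The most abundant class A gene, DNAJA1, a cofactor of cytosolic HSP70, had 16889 counts (478 CPM) in the CCE library and 2492 counts (448 CPM) in the control library. Its ratio was 1.07-fold (interval 1.02 to 1.11), so the levels were nearly the same. DNAJA2, a second cytosolic cofactor, had 113 CPM in the CCE library and 109 CPM in the control library, with an interval that included 1 (log2 ratio 0.06, -0.07 to 0.18). DNAJA3, the class A protein of mitochondria, had 71.4 CPM in the CCE library and 61.1 CPM in the control library, a log2 ratio of 0.22 (0.06 to 0.39). DNAJA4 had 11 counts in the CCE library and 2 counts in the control library and was not measured. The 3 measured class A genes thus spanned log2 ratios of 0.06 to 0.22, with a median of 0.09.

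Class B had a median log2 ratio of 0.41, with 8 of 9 measured genes above 0 and 3 at least 1.5-fold higher. Over measured protein-coding genes these shares were 54.4% and 11.5%. By the deposited FPKM, described further on, 0 of the 9 were at least 1.5-fold higher and 2 lower. The FPKM shares of protein-coding genes were 21.5% and 25.8%. DNAJB5, at chr9:34989638-34998897, a cytosolic cofactor related to DNAJB1, had 853 counts (24.1 CPM) in the CCE library and 63 counts (11.3 CPM) in the control library. It was 2.13-fold higher (1.65 to 2.80) in the CCE library. DNAJB4, at chr1:78444859-78483648, had 2441 counts (69.1 CPM) in the CCE library and 188 counts (33.8 CPM) in the control library. It was 2.04-fold higher (1.76 to 2.38), and 382 of 11637 protein-coding genes had a larger ratio. DNAJB1, the major stress-induced member of the class, had 153 CPM in the CCE library and 145 CPM in the control library, with an interval that included 1 (1.05-fold, 0.976 to 1.13). These 3 genes were set side by side after their values were seen, and by FPKM the log2 ratios were 0.54 for DNAJB4, -0.91 for DNAJB5 and -0.12 for DNAJB1.

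DNAJB9, at chr7:108210311-108215294, a cofactor of the endoplasmic reticulum HSP70 that takes part in degradation of misfolded proteins, had 1617 counts in the CCE library and 158 counts in the control library. It was 1.61-fold higher (1.37 to 1.91). DNAJB14, a cofactor in the membrane of the same compartment, lay just under the threshold with 64.9 CPM in the CCE library and 45.1 CPM in the control library (1.44-fold, 1.26 to 1.65). DNAJB2, a cofactor that binds ubiquitin chains, was 1.33-fold higher (1.11 to 1.59). DNAJB11, a folding cofactor of the endoplasmic reticulum lumen, had 90.7 CPM in the CCE library and 80.9 CPM in the control library (log2 ratio 0.16, 0.02 to 0.31), and DNAJB12 a log2 ratio of 0.08 (-0.08 to 0.26). DNAJB6, which suppresses aggregation of polyglutamine proteins, was the single class B gene below 0. It had 228 CPM in the CCE library and 263 CPM in the control library, a log2 ratio of -0.21 (-0.29 to -0.12). DNAJB7 had 13 counts in the CCE library and 3 counts in the control library, DNAJB13, of sperm flagella and cilia, had 3 counts in the CCE library and 1 count in the control library, and DNAJB8 had 0 counts in both.

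**Figure D2:**
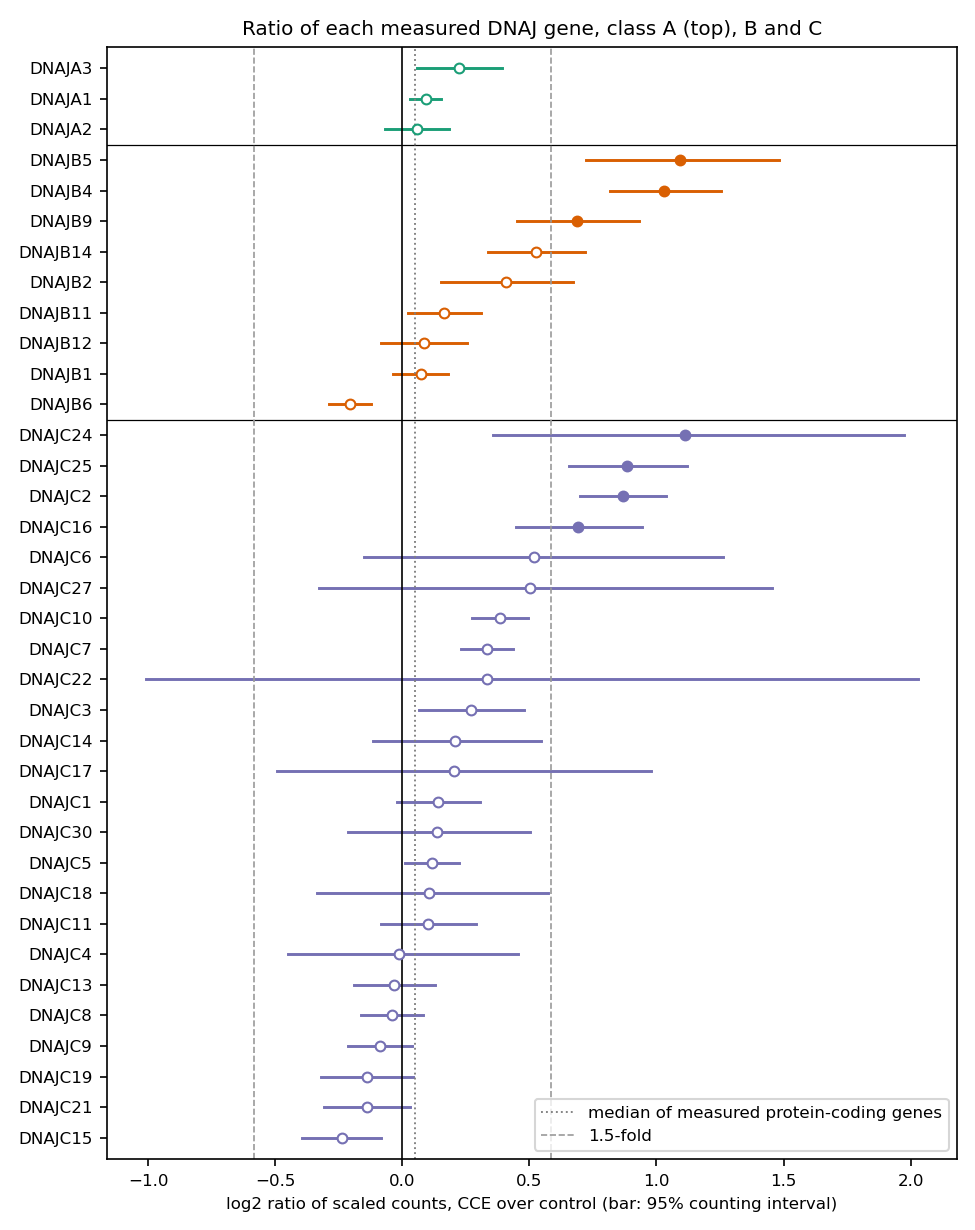
Log2 ratio of library-scaled counts, CCE over control, of each measured DNAJ gene by class, with bars for the exact 95% counting interval. Filled points are the 7 genes at least 1.5-fold higher with an interval excluding 1, 3 in class B and 4 in class C, dashed lines mark 1.5-fold and the dotted line the median of all measured protein-coding genes at 0.05.

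Class C, the largest and most varied class, had a median of 0.17 with 17 of 24 measured genes above 0 and 4 at least 1.5-fold higher. Over measured protein-coding genes these shares were 54.4% and 11.5%. By FPKM, 3 of the 24 were at least 1.5-fold higher and 9 lower, against 21.5% and 25.8% of protein-coding genes. DNAJC24, at chr11:31391387-31454382, which takes part in making diphthamide on the elongation factor eEF2, had 206 counts in the CCE library and 15 counts in the control library. It was 2.16-fold higher, and the few control counts gave a wide interval of 1.28 to 3.93. DNAJC25, at chr9:114393614-114416631, had 1958 counts in the CCE library and 167 counts in the control library, 1.85-fold higher (1.57 to 2.17). The read-through gene DNAJC25-GNG10, which meets the symbol rule, shares exons with it and had 0 counts in both libraries. DNAJC2, at chr7:102952736-102985277, a cofactor bound to the ribosome, had 3631 counts (103 CPM) in the CCE library and 313 counts (56.3 CPM) in the control library. It was 1.83-fold higher (1.63 to 2.06), an interval wholly above 1.5-fold. DNAJC16, at chr1:15853308-15918874, had 1549 counts in the CCE library and 151 counts in the control library, 1.61-fold higher (1.36 to 1.92).

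Of the measured class C genes, 7 lay below 0, as did 45.6% of measured protein-coding genes. DNAJC15, of the inner mitochondrial membrane, had 61.4 CPM in the CCE library and 72.5 CPM in the control library, a log2 ratio of -0.24 (-0.39 to -0.08). It was the single class C gene whose interval lay below 0. DNAJC21, which acts in maturation of the large ribosomal subunit, and DNAJC19, of the mitochondrial protein import motor, both had a log2 ratio of -0.14, with intervals that included 0. DNAJC9, a histone chaperone, had 104 CPM in the CCE library and 110 CPM in the control library (-0.09, -0.21 to 0.04). DNAJC8, a spliceosome-associated protein, had 112 CPM in the CCE library and 115 CPM in the control library (-0.04, -0.16 to 0.08). DNAJC13, of endosomes, and DNAJC4 lay at -0.03 and -0.01.

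The other class C genes lay above 0, and 4 of them had an interval above 0. With the called genes, 8 of 24 measured class C genes had such an interval, near the 32.7% of measured protein-coding genes. DNAJC10, a disulfide reductase of the endoplasmic reticulum, had 171 CPM in the CCE library and 131 CPM in the control library (log2 ratio 0.38, 0.27 to 0.50). DNAJC7, a cytosolic protein that binds both HSP70 and HSP90, had 199 CPM in the CCE library and 158 CPM in the control library (0.33, 0.23 to 0.44). DNAJC3, an inhibitor of the stress kinase PERK, had 47.5 CPM in the CCE library and 39.4 CPM in the control library (0.27, 0.07 to 0.48). DNAJC5, the cysteine string protein of secretory vesicles, had 163 CPM in the CCE library and 151 CPM in the control library (0.12, 0.01 to 0.22). The remaining 9 measured genes, DNAJC1, DNAJC6, DNAJC11, DNAJC14, DNAJC17, DNAJC18, DNAJC22, DNAJC27 and DNAJC30, had log2 ratios of 0.10 to 0.52 with intervals that included 0. DNAJC1, of the endoplasmic reticulum membrane, was at 0.14 (-0.02 to 0.30). DNAJC28, with 32 counts in the CCE library and 1 count in the control library, was under the filter, and its ratio of 5.03-fold had an interval of 0.841 to 205. DNAJC12 had 3 counts in the CCE library and 1 count in the control library, and DNAJC5B and DNAJC5G had 0 counts in both. A count of 0 allows up to 3 counts, or 0.0849 CPM in the CCE library and 0.540 CPM in the control library.

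Grouped by compartment, the 10 genes of the endoplasmic reticulum were all measured and all above 0, as were 54.4% of measured protein-coding genes. Their median log2 ratio was 0.33. Of these 10, 3 were at least 1.5-fold higher, against 11.5% of measured protein-coding genes, and 7 had an interval above 0, against 32.7%. By the deposited FPKM, described further on, 4 of the 10 lay below 0: DNAJB14, DNAJC10, DNAJC16 and DNAJC18. With the GC-decile median subtracted, DNAJB11 lay at -0.032 and 1 of the 3 calls, that of DNAJC25, was kept. The stress-induced members DNAJB9, DNAJC10, DNAJC3 and DNAJB11 had log2 ratios of 0.69, 0.38, 0.27 and 0.16, in that order, so DNAJB9 stood above the other 3, although its interval (0.45 to 0.93) overlapped those of DNAJC10 and DNAJC3. The 5 measured mitochondrial genes lay between -0.24 and 0.22 with a median of 0.10 and none past 1.5-fold. Of measured protein-coding genes, 11.5% were at least 1.5-fold higher and 10.9% lower, so few calls would fall among 5 genes. The 8 measured genes of cytosol and nucleus had a median of 0.21. The 5 genes of ribosome, spliceosome and nucleus had a median of -0.04, with DNAJC2 at 0.87 and the others between -0.14 and 0.20. The 3 measured vesicle and endosome genes had a median of 0.12. The 5 measured genes in no compartment group had a median of 0.33 with 4 above 0, against 54.4% of measured protein-coding genes. None of the 3 genes known from testis or cilia, DNAJB7, DNAJB8 and DNAJB13, was measured.

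Levels were compared between genes per kilobase of merged exons. DNAJA1 was the highest of all measured members at 179 CPM per kb in the CCE library and 168 CPM per kb in the control library. DNAJC8, DNAJC9 and DNAJC1 led class C, with 38.6, 32.2 and 27.8 CPM per kb in the CCE library, against 39.7, 34.3 and 25.3 CPM per kb in the control library. By the mean of both libraries, DNAJB1 led class B at 18.7 CPM per kb in the CCE library and 17.7 CPM per kb in the control library, followed by DNAJB6 and DNAJB9. DNAJB6 had 15.2 CPM per kb in the CCE library and 17.5 CPM per kb in the control library, and DNAJB9 had 18.0 CPM per kb in the CCE library and 11.2 CPM per kb in the control library. Per kilobase of the canonical transcript, a length chosen after the values were seen, DNAJC7 led class C at 110 CPM per kb in the CCE library and 87.4 CPM per kb in the control library, and DNAJB6, DNAJB1 and DNAJB11 led class B.

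The low-count genes set a limit: 10 of the 36 measured genes had under 100 counts in the control library. The ratio between the libraries also moved with base composition. Over deciles of exonic GC content, the median log2 ratio of protein-coding genes was 0.19 in the lowest decile and -0.20 in the highest. The measured DNAJ genes had a median GC content of 43.2%, against 47.4% for measured protein-coding genes. The 22 DNAJ genes with GC below that level had a median log2 ratio of 0.30, and the 14 others 0.14. With the median of the GC decile subtracted, these medians were 0.14 and 0.19, and 26 of 36 genes lay above 0. The subtraction by construction puts the median of the protein-coding genes of each decile at 0. DNAJB4, DNAJB5, DNAJC2, DNAJC24 and DNAJC25 stayed past 1.5-fold at log2 ratios of 0.84, 1.14, 0.67, 0.93 and 0.72, while DNAJB9 at 0.50 and DNAJC16 at 0.58 did not. The part of GC content in the ratios was not tested.

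Exons of 5 of the 7 higher genes overlapped another gene of the count tables, and no source used here gives the strand setting of the counting. DNAJC2 overlaps PMPCB on the opposite strand, which had 119 CPM in the CCE library and 129 CPM in the control library. DNAJC24 overlaps IMMP1L on the opposite strand, with 11.7 CPM in the CCE library and 9.71 CPM in the control library. DNAJC16 overlaps AGMAT and a noncoding gene, which had at most 3.25 CPM in the CCE library and 3.78 CPM in the control library. DNAJB4 overlaps GIPC2 on the same strand, with 2 counts in the CCE library and 0 counts in the control library. DNAJC25 shares exons on the same strand with DNAJC25-GNG10, which had 0 counts in both libraries. The read-through gene also shares exons with GNG10, so its 0 counts do not show that it was absent. By FPKM that read-through gene was listed at 0.0557 in the CCE library and 0.553 in the control library. A row for ambiguous records held 1.36% of records in the CCE library and 1.59% in the control library. How many of these came from shared exons was not tested. DNAJB5 and DNAJB9 overlap no other gene of the tables. Reads aligned to several places stand in a row of their own and not in the gene counts. That row held 17.3% of records in the CCE library and 11.6% in the control library. It can lower the counts of genes with processed copies: DNAJA1 has 6 annotated pseudogenes, DNAJB6 has 8, DNAJC8 has 4 and DNAJC19 has 9. Whether the unequal shares moved the ratios of these genes was not tested. All 32 DNAJ pseudogenes together held 208 counts in the CCE library and 21 counts in the control library.

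The FPKM values, a level scaled for transcript length and library size, which the authors deposited by transcript, gave another picture for many DNAJ genes. Summed per gene with a pseudocount of 1, 14 of the 28 genes with a count ratio above 0 lay below 0, as did 39.7% of all such protein-coding genes. Of all measured protein-coding genes, 42.5% lay above 0 by FPKM. At least 1.5-fold by FPKM, 3 of the 36 DNAJ genes were higher and 11 lower, against 21.5% and 25.8% of protein-coding genes. With a pseudocount of 0.1, 5 were higher and 11 lower, against 26.7% and 29.4% of protein-coding genes. Across the 36 genes, which are not independent replicates, the level per kilobase of canonical transcript and the FPKM had a Spearman's rho of 0.757 in the CCE library and 0.918 in the control library. The log2 ratios by the 2 measures had a rho of 0.267. Among the 7 higher genes, DNAJB4 (FPKM log2 ratio 0.54), DNAJB9 (0.33), DNAJC24 (2.97) and DNAJC25 (1.13) kept their direction, and DNAJB5 (-0.91), DNAJC2 (-0.18) and DNAJC16 (-2.24) turned.

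DNAJB5 was listed at 0.254 FPKM in the CCE library and 1.36 FPKM in the control library, although its counts ran the other way. DNAJC24 was listed at 6.81 FPKM in the CCE library and at 0 in the control library, where it had 15 counts. Among the abundant genes, DNAJC9 was listed at 0.757 FPKM in the CCE library and 17.3 FPKM in the control library, where it had 3662 counts in the CCE library and 613 counts in the control library. The leading FPKM row of DNAJC7 held 5.89 in the CCE library and 48.4 in the control library, while its scaled counts were 1.26-fold higher. DNAJA1 was listed at 137 FPKM in the CCE library and 147 FPKM in the control library, a log2 ratio of -0.10, against 0.09 by counts. The cause of these differences was not tested.

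**Figure D3:**
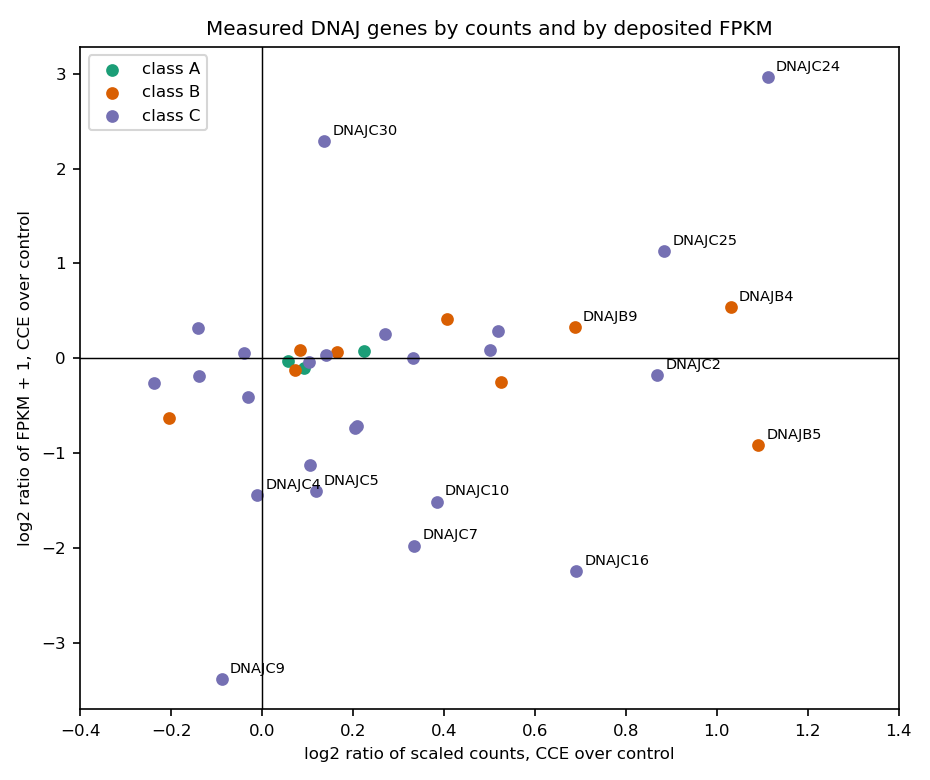
Log2 ratio of library-scaled counts (horizontal axis) against log2 ratio of deposited FPKM plus 1 (vertical axis), both CCE over control, for the 36 measured DNAJ genes coloured by class. Of the 28 genes right of 0 by counts, 14 lie below 0 by FPKM, among them DNAJB5, DNAJC2, DNAJC16, DNAJC7 and DNAJC10.

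The partners of the J-domain proteins gave a frame for these ratios. All 9 measured HSP70 genes of 12 had a log2 ratio above 0, as did 54.4% of measured protein-coding genes. Under the filter, HSPA2 had 18 counts in the CCE library and 8 counts in the control library (0.354-fold, 0.146 to 0.941). HSPA12B, also under it, had 8 counts in each library (0.157-fold, 0.0515 to 0.481). HSPA6, likewise not measured, was at 1.42-fold (0.436 to 7.29). The median of the 9 was 0.45 by counts and 0.13 by FPKM with a pseudocount of 1. Of the 9, 1 was at least 1.5-fold higher, against 11.5% of measured protein-coding genes. HSPA8, the constitutive cytosolic HSP70, had 3203 CPM in the CCE library and 2374 CPM in the control library (log2 ratio 0.43, 0.41 to 0.46; -4.69 by FPKM). HSPA13, an HSP70 of microsomes, was the gene past the threshold at 1.51-fold (0.59, 0.45 to 0.73). The stress-induced HSPA1A and HSPA1B had 0.30 (-0.05 to 0.68) and 0.02 (-0.15 to 0.20). These are near-identical copies, and reads that align to both places are not in the gene counts. HSPA5, the HSP70 of the endoplasmic reticulum, had 933 CPM in the CCE library and 823 CPM in the control library, a log2 ratio of 0.18 (-0.55 by FPKM). The summed level of the HSP70 list was 5166 CPM in the CCE library and 3955 CPM in the control library.

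Nucleotide exchange factors, which release the client from HSP70, had a median log2 ratio of 0.34 over 13 measured genes. Of these, 1 was at least 1.5-fold higher, against 11.5% of measured protein-coding genes. It was HSPA4L at 0.67 (0.46 to 0.89, and -0.42 by FPKM). HSPA4, the highest of the list per kilobase, was at 0.52 (0.44 to 0.60). BAG3, an exchange factor induced by heat shock, was at -0.15 (-0.26 to -0.04). The 9 other cochaperones had a median of 0.05, and 1 was at least 1.5-fold higher, against 11.5% of measured protein-coding genes. CHORDC1, a cochaperone of HSP90, was 1.70-fold higher (log2 ratio 0.77, 0.58 to 0.96; -0.02 by FPKM), while PTGES3, the highest of them per kilobase in the CCE library, was at -0.01 and CDC37, the highest in the control library, at -0.16 (-0.23 to -0.09). Of 8 measured HSP90, small heat shock and chaperonin genes, 1 was at least 1.5-fold higher and 1 lower, against 11.5% and 10.9% of measured protein-coding genes. HSP90AA1 was 1.64-fold higher (0.71 on the log2 scale, -4.32 by FPKM) and the small heat shock gene HSPB1 lower at -0.63 (-0.72 to -0.54). HSP90AB1, the highest of that list per kilobase, was at 0.37.

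The 3 heat shock factor genes lay below 0, as did 45.6% of measured protein-coding genes. Of the 3, 1 was at least 1.5-fold lower, HSF4, against 10.9% of measured protein-coding genes. HSF1, the main regulator of the heat shock response, had 102 CPM in the CCE library and 125 CPM in the control library, a log2 ratio of -0.30 (-0.42 to -0.18). HSF4 was at -0.69 (-1.25 to -0.09) and HSF2 at -0.10 (-0.33 to 0.13). SEC63, a J-domain protein of the translocon of the endoplasmic reticulum that falls outside the symbol rule, had 124 CPM in the CCE library and 95.9 CPM in the control library, a log2 ratio of 0.37 (0.24 to 0.50; -0.38 by FPKM).

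**Figure D4:**
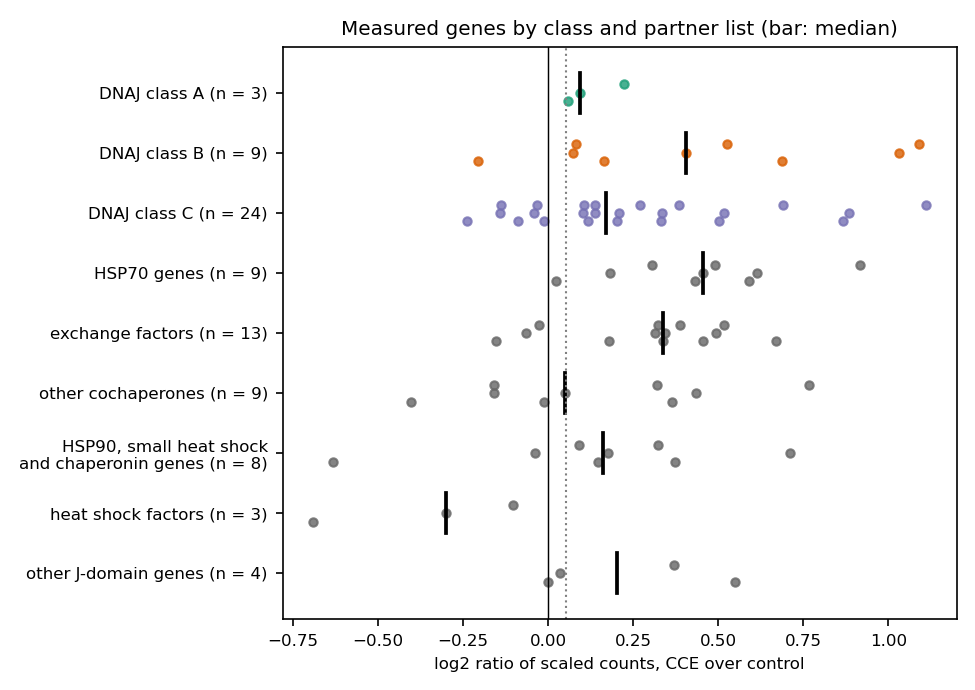
Log2 ratio of library-scaled counts, CCE over control, of each measured gene in the 3 DNAJ classes and in 6 lists of partner genes, with a black bar for the median and a dotted line for the median of measured protein-coding genes at 0.05. Medians are 0.09, 0.41 and 0.17 for classes A, B and C and 0.45 for the HSP70 genes, and the 3 heat shock factor genes lie below 0.

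Promoter windows around the transcription start, from RefSeq on build GRCh38.p14, were matched by symbol for 41 of the 45 genes. They were searched on both strands for the heat shock element, which is GAA, TTC and GAA or TTC, GAA and TTC with NN between units, for the NRF2 letters TGAC, NNN and GC in a row, and for the ER stress element, which is CCAAT and CCACG spaced by 9 bases. The heat shock letters stood in 2 of 41 DNAJ genes, DNAJA1 and DNAJB6, and in 0.608% of 27305 genes. Both stretches are shown because neither gene was higher by 1.5-fold, with log2 ratios of 0.09 and -0.21, and the capitals mark the match. The first is at chr9:33025252-33025288 and the second at chr7:157336849-157336909, both on the plus strand of GRCh38.p14.
DNAJA1: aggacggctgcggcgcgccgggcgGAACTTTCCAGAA
DNAJB6: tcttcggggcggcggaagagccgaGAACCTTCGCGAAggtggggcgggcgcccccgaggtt
The NRF2 letters stood in 5 of 41 DNAJ genes, DNAJA2, DNAJB6, DNAJC10, DNAJC11 and DNAJC5G, and in 16.1% of all genes. The ER stress element stood in none of the 41 and in 0.0916% of all genes. None of the windows of the 7 higher genes held any of these letters, which says only that the letters are not in these windows.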

How the data were processed

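The authors deposited raw counts per Ensembl gene ID and FPKM values by transcript row (215170 rows per library) for 1 CCE and 1 control library. Per the submitters' processing notes, HISAT2 was used, with builds hg19 and GRCh37. No source used here gives the counting program, its strand setting or the FPKM program. There are 5 rows in each deposited count file that name no gene. They held 66.8% of records in the CCE library and 62.9% in the control library and were left out.

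GENCODE release 44 lifted to GRCh37 matched 55665 of 63677 IDs. Counts were scaled with TMM factors (edgeR 4.0.16, R 4.3.3). Ratios had no pseudocount and exact 95% Clopper-Pearson intervals (scipy 1.17.1, Python 3.11.15). The intervals cover counting error only and leave out any spread between cultures. They also treat every count as independent, which PCR copies are not. Measured genes averaged 1 CPM or more, and calls were made at 1.5-fold, or at 2-fold, with an interval excluding 1. No p-value is given, as each group has 1 library.

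Full values are given for called genes, the 3 highest per length and the highest and lowest ratio of each class, and the named heat shock and ER stress genes. For partner lists, called genes and the most abundant are named, others were chosen after their values were seen. The members, lists and rules were chosen with earlier results of these data known. Alternatives were scaling by DESeq2 1.42.0, by upper quartiles or by totals, FPKM with pseudocounts of 1 and 0.1, other filters and folds, medians of 10 GC or level deciles subtracted, and members without overlaps. Protein sequences were not used here. Partner genes not named enter only the counts, medians and sums.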

Additional observations from a re-analysis of the deposited data

How the results depend on the processing

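Scaling by totals, upper quartiles or DESeq2 and subtraction of level-decile medians left the same 7 DNAJ genes called at least 1.5-fold higher, and all 36 ratios stayed within their counting intervals. Upper-quartile scaling moved the class A median log2 ratio to 0.048. With GC-decile medians subtracted 5 of the 7 genes stayed called, the class A median was -0.071, and 4 genes changed sign: DNAJA1 at -0.071, DNAJA2 at -0.14, DNAJB11 at -0.032 and DNAJC4 at 0.080. A mean of at least 5 CPM left out DNAJC24. Without genes overlapping another gene, 17 measured genes remained, of which 2 were called higher, DNAJB5 and DNAJB9, and 0 of class C; fewer genes enter by construction. At 2-fold 3 of all members and 1 of class C were higher. With no fold threshold 16 of all members, 2 of class A, 6 of class B and 8 of class C were higher, and 2, 0, 1 and 1 lower. Of measured protein-coding genes, 32.7% were higher and 26.6% lower in this way.

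By FPKM at pseudocounts of 1 and 0.1 the median was -0.071 and -0.073 over all members, -0.034 and -0.035 in class A, 0.066 and 0.067 in class B, and -0.19 and -0.19 in class C. By FPKM at a pseudocount of 1, 3 members lay at least 1.5-fold higher, against 21.5% of measured protein-coding genes. At either pseudocount 11 members lay at least 1.5-fold lower, with 0 higher and 2 lower in class B and 9 lower in class C. Of measured protein-coding genes, 25.8% were at least 1.5-fold lower at a pseudocount of 1 and 29.4% at 0.1. At either pseudocount 2 of the 7 called genes stayed past 1.5-fold. Of the 36 genes, 14 above 0 by counts lay below 0 by FPKM and 2 below 0 lay above. Among the genes whose counting interval excluded 0, the FPKM log2 ratios of opposite sign, at pseudocounts of 1 and 0.1, were -0.10 and -0.10 for DNAJA1, -0.25 and -0.29 for DNAJB14, -0.91 and -2.05 for DNAJB5, -1.51 and -1.88 for DNAJC10, -2.24 and -2.97 for DNAJC16, -0.18 and -0.19 for DNAJC2, -1.40 and -1.49 for DNAJC5, and -1.98 and -2.05 for DNAJC7; the cause was not tested.

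Over the 46 measured partner genes, 4 were called higher and 2 lower, with a median of 0.32. These are 8.70% and 4.35% of them, against 11.5% and 10.9% of measured protein-coding genes. The partner median was 0.16 with GC-decile medians subtracted and 0.12 without genes that overlap another gene. By FPKM it was -0.10 and -0.11, with 2 higher and 7 lower at a pseudocount of 1 and 10 lower at 0.1. Of protein-coding genes, 21.5% were higher and 25.8% lower at a pseudocount of 1, and 29.4% lower at 0.1. Of the partner genes, 1 was higher and 0 lower after GC subtraction, and 2 were higher after level subtraction. There were 4 lower with no filter, 1 lower at a mean of 5 CPM, and 2 higher and 1 lower without overlaps. None passed 2-fold in either direction (0 and 0), against 3.26% and 4.33% of protein-coding genes. With no fold threshold 25 were higher and 7 lower, against 32.7% and 26.6%. No paired analysis was possible because each group has 1 library. Protein features planned at the start were not run. The control depth limits genes with few counts most.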
